A study of Mus musculus with 12 samples.

Results

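The genes of adenosine receptors, adenylyl cyclases, β-arrestins and the transcription factor CREB1 were followed through NK cells and type 1 innate lymphoid cells (ILC1) of lean and obese mouse liver. The set was chosen by gene symbol and held 9 of the 5545 genes analysed: Adora2a, Adora2b, Adcy3, Adcy6, Adcy7, Adcy9, Arrb1, Arrb2 and Creb1. No adrenergic receptor was among the 9, so adrenergic receptor genes in the table are described beside them. Female C57BL/6 mice went at weaning onto RM1 chow (lean) or onto a palatable obesogenic diet with condensed milk (obese), and were killed after 12 weeks. From each liver, Lin- NK1.1+ CD49a- CD49b+ cells (NK cells) and Lin- NK1.1+ CD49a+ CD49b- cells (ILC1) were sorted, and 2 ng of total RNA per library was sequenced. There were 3 mice per diet, numbered 25, 26 and 27 in each, hence 4 groups of 3 libraries, and the NK and ILC1 libraries of a mouse share the animal.

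Adenosine outside the cell acts on lymphocytes through its type 2 receptors, encoded by Adora2a and Adora2b, and adrenaline and noradrenaline act through β-adrenergic receptors. These receptors couple to the stimulatory G protein Gs, which activates adenylyl cyclases to make cyclic AMP (cAMP). Protein kinase A, activated by cAMP, phosphorylates CREB, which binds the cAMP response element (CRE) in target promoters. Receptor kinases and β-arrestins switch off the activated receptor. In NK cells a rise in cAMP is known to restrain cytotoxicity and cytokine release.

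Libraries held 1666637 to 2826766 counts over the genes analysed, and 3 of the 12 stood apart. Lean NK 27 and obese ILC1 25 lacked genes that were common elsewhere. Of the genes at 100 or more normalized counts in all other libraries, 6.14% were at 10 or fewer in lean NK 27 and 8.32% in obese ILC1 25, against 0% in each of the other 10 libraries. Obese ILC1 26 carried transcripts of other liver cells. Its 10 hepatocyte markers summed to 302253 normalized counts, against 38 to 1241 in the other 11 libraries, and its 10 Kupffer cell and macrophage markers summed to 50926, against 167 to 2120. The 7 B cell markers summed to 20057 there and to 454 at most elsewhere, the 4 neutrophil markers to 8486 against 39 at most, and the 3 dendritic cell markers to 1776 against 23 at most. Of the markers of the sorted cells, 3 of 6 listed for ILC1 were in the genes analysed (Cxcr6, Cd200r1 and Cxcr3), and they summed to 325 to 1904 in NK libraries and 9522 to 34461 in ILC1 libraries. Of 9 markers listed for NK cells, 2 were in the genes analysed (Cx3cr1 and Cmklr1). They summed to 952 to 2378 in NK libraries and 5 to 444 in ILC1 libraries other than obese ILC1 26, which stood at 3153, above every NK library. Cx3cr1 alone was at 3111 in obese ILC1 26, above its highest NK value of 2362. Cmklr1 was at 42 there, within its NK range of 16 to 70. The 10 T cell markers summed to 1058 to 2202 in NK libraries and 4987 to 18289 in ILC1 libraries. The largest part in ILC1 was Cd3g, with a mean of 13041 in lean and 6043 in obese ILC1, against 184 and 277 in lean and obese NK cells. Cd3d, Cd3e, Cd4, Cd5, Cd6 and Bcl11b were also higher on average in lean ILC1 than in lean NK cells. Cd8a and Cd8b1 had no count in either of these groups, and Cd28 averaged 1002 in lean ILC1 and 1075 in lean NK cells. In bulk RNA, fewer cells that express a gene and less RNA per cell cannot be told apart.

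**Figure D1:**
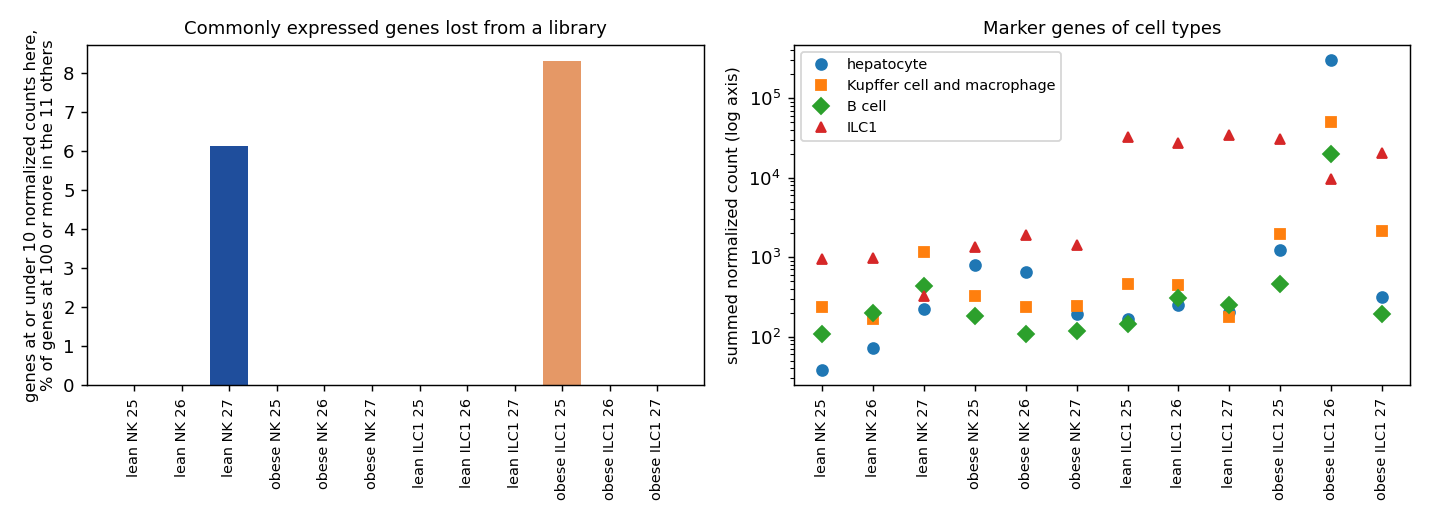
Left, for each of the 12 libraries, the percentage of genes at 100 or more normalized counts in all other libraries that were at 10 or fewer here. Right, the summed normalized count (log axis) of hepatocyte, Kupffer cell and macrophage, B cell and ILC1 marker lists. Only lean NK 27 (6.14%) and obese ILC1 25 (8.32%) lost such genes, and obese ILC1 26 stood highest for hepatocyte (302253), Kupffer cell and macrophage (50926) and B cell markers (20057).

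Levels of the 9 genes differed widely. Per exonic kilobase, the order in lean NK cells was Adora2a (398 ± 22.8 normalized counts per kb, SD, n = 3), Arrb2 (309 ± 52.6), Adcy7 (184 ± 53.6), Creb1 (89.7 ± 9.83), Adcy3 (23.4 ± 3.13), Arrb1 (3.19 ± 1.81) and Adcy9 (1.22 ± 1.06). Adora2b and Adcy6 had no count in that group. Each neighbour in this order down to Arrb1 was separated by the ranges of its 3 libraries, whereas Arrb1 and Adcy9 overlapped. In lean ILC1, Arrb2 (428 ± 72.7 per kb) and Adora2a (342 ± 74.4 per kb) headed the order, and the ranges of these 2 genes overlapped. Of the members, 1 adenosine receptor, 1 cyclase and 1 arrestin were thus abundant.

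**Figure D2:**
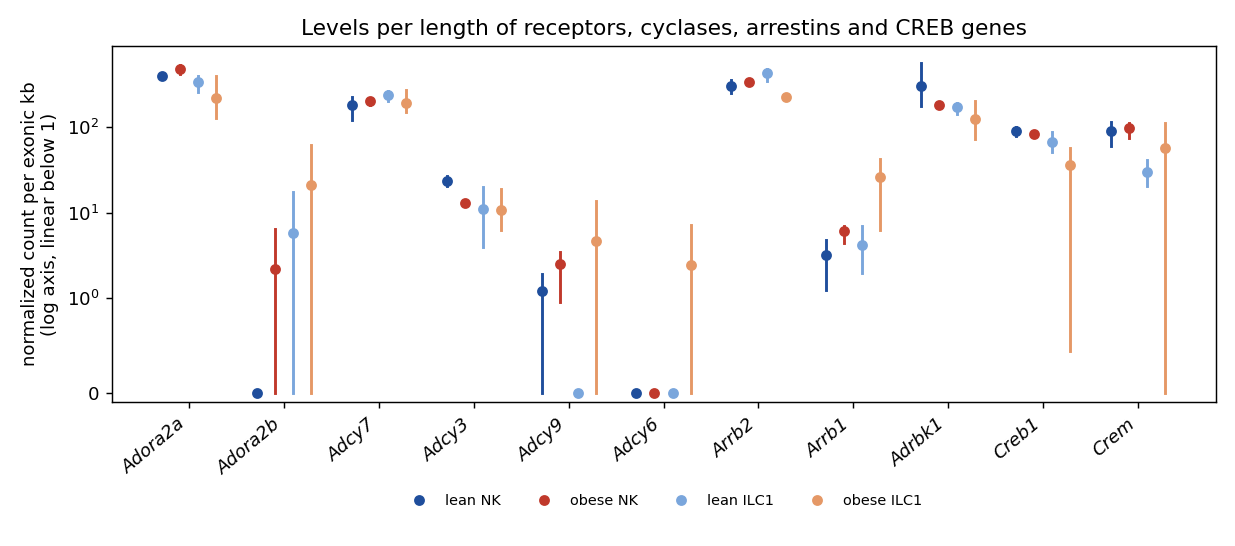
Normalized count per exonic kilobase (log axis, linear below 1) of the 9 members and of Adrbk1 and Crem in the 4 groups. Points are means of 3 libraries and lines run from the lowest to the highest library. Adora2a (398 in lean NK cells), Adcy7 (184) and Arrb2 (309) lay far above the other adenosine receptor, cyclases and arrestin of the set.

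Promoter sequence was examined for the CRE because CREB1 is the transcription factor of the set. The 250 bases before the transcription start (RefSeq, GRCm38.p6) were given for 5 of the 9 genes in 8 windows. The full palindrome TGACGTCA was in none of the 8 windows, and in 1.55% of 32851 windows of all genes. The shorter core element TGACG, which is also contained in the full one, was searched on both strands and occurred in 2 of the 8 windows, against 17.8% of all. Both windows belong to cyclases at opposite ends of the level scale, the abundant Adcy7 and the barely detected Adcy9. They are shown 5′ to 3′ along the gene, with the core element in capitals (for Adcy7 it reads on the other strand). The Adcy7 window shown is chr8:88282742-88282991 on the plus strand and starts the element 28 bases before the start site. The Adcy9 window is chr16:4420499-4420748 on the minus strand with the element 24 bases before its start site. Adcy7 also had windows of other start sites, chr8:88288816-88289065 and chr8:88293954-88294203, in which the element was absent. Which start site these cells use was not examined.
Adcy7: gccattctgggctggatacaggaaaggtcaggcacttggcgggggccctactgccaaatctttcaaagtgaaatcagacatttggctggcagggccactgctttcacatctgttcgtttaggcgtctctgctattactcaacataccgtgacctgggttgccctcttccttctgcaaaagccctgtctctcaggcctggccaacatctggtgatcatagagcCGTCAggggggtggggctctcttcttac
Adcy9: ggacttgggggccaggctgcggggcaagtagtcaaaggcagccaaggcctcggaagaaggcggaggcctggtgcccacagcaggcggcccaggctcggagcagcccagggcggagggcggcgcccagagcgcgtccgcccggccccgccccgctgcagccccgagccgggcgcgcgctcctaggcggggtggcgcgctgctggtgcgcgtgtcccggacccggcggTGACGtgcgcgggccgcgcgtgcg
A match of these letters is a description of the window, not evidence of CREB binding.

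Adora2a (chr10:75316877-75334784, GRCm38) encodes the high-affinity receptor of lymphocytes for adenosine. Its normalized counts in lean NK cells were 1142, 1279 and 1235 in mice 25, 26 and 27. In obese NK cells they were 1290, 1459 and 1650. In lean ILC1 they were 1131, 1221 and 789, and in obese ILC1 394, 404 and 1223. The NK libraries were close to each other, and the 3 obese ones all lay above the 3 lean ones, as for 9.9% of genes tested. The nearest almost met, with lean NK 26 at 1279 and obese NK 25 at 1290. Among ILC1, obese 25 and 26 were low and obese 27 was at the level of lean ILC1.

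Across both diets Adora2a was lower in ILC1 than in NK cells by a log2 difference of -0.68 (SE 0.29, 95% interval -1.32 to -0.04), and did not pass the test after adjustment (edgeR's quasi-likelihood test, adjusted p = 0.229). The direction was the same in 6 of 6 mice, as it was for 5.49% of the 2606 genes tested (and 5.91% in the higher direction). In mouse 25 of the lean group the gap was small, with 1131 against 1142. Taken by diet, the log2 difference was -0.20 (SE 0.41) in lean mice and -1.16 (SE 0.41, adjusted p = 0.22) in obese mice, where all 3 ILC1 libraries lay below all 3 NK libraries. Such a separation downward in obese mice was seen for 13.7% of genes tested. Obese ILC1 libraries moved this result in both directions. Without obese ILC1 27 the log2 difference over both diets was -1.08 with an adjusted p of 0.00435, and Adora2a was called, whereas without the 3 libraries that stood apart, which leaves 27 as the single obese ILC1 library, it was -0.25 (adjusted p = 0.323). Over 21 alternatives the adjusted p ran from 0.00435 to 0.954.

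Diet differences of Adora2a did not pass the test in either cell type. The log2 difference of obese against lean was 0.30 (SE 0.41, 95% interval -0.60 to 1.20, adjusted p = 1) in NK cells and -0.65 (SE 0.41, 95% interval -1.56 to 0.25, adjusted p = 0.61) in ILC1. The difference between those effects was -0.96 (SE 0.58, adjusted p = 0.931). In obese ILC1 the low values were in the library that lost common genes (25) and in the one with hepatocyte and Kupffer cell transcripts (26), and their part in the result was not tested. Without these 2 libraries and lean NK 27, obese ILC1 was 1 library (27) and the value was 0.24. Over the 12 libraries, the genes whose log2 CPM followed Adora2a most closely were 5830432E09Rik (Pearson's r = 0.912), A630072M18Rik (0.905), Atp8b2 (0.899), A930024E05Rik (0.893) and Atm (0.889). These r values describe the libraries, which share depth and the loss of genes noted above.

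Adora2b (chr11:62248984-62266453), the low-affinity receptor of this pair, had no count in 9 of 12 libraries. The exceptions were lean ILC1 27 with 31 counts, obese NK 26 with 18 and obese ILC1 26 with 66. In each of those groups the other 2 libraries were at 0, so no group difference was detectable at this depth. The other adenosine receptor genes were as sparse. Adora1 had 13 counts in obese ILC1 26 alone, and Adora3 had 15 in obese ILC1 26 and 16 in obese ILC1 27. Adora2a was the adenosine receptor gene detected throughout, in 12 of 12 libraries.

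**Figure D3:**
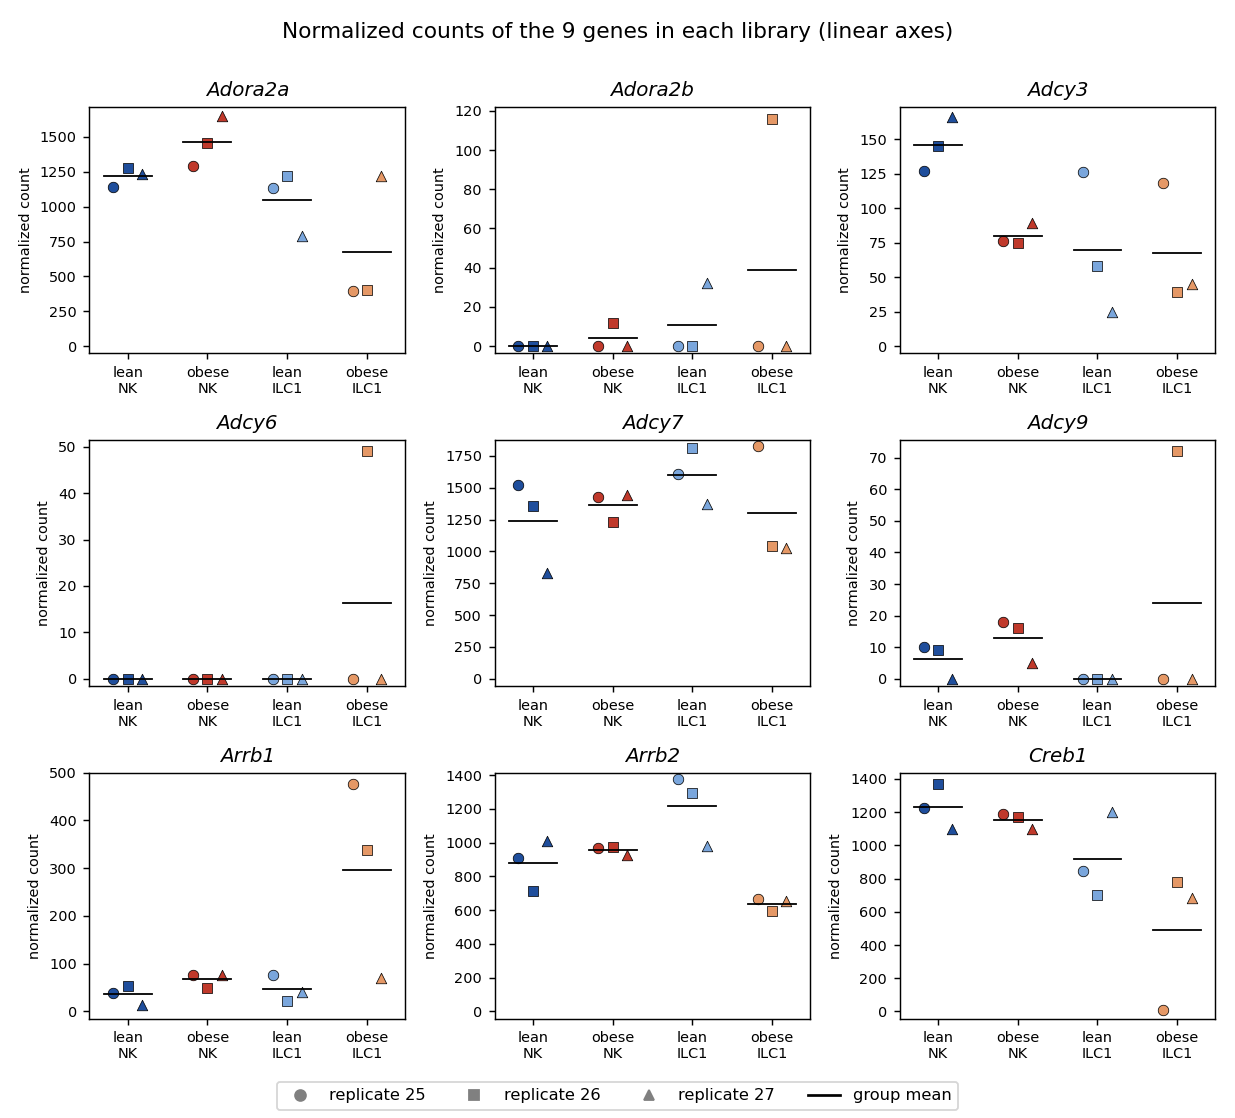
Normalized counts (linear axes, each panel with its own scale) of the 9 genes in 12 libraries, with replicate 25 as circles, 26 as squares and 27 as triangles, and a bar at each group mean. Arrb2 separates obese ILC1 (595 to 664) from lean ILC1 (983 to 1376), Arrb1 is high in obese ILC1 25 and 26 (477 and 339) but not 27 (70), and Creb1 is near 0 in obese ILC1 25.

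The adrenergic receptor genes reported here were at or near the floor. Adrb1, for the β1 receptor, ran from 3 to 22 normalized counts in NK libraries, from 0 to 6 in lean ILC1, and was at 0 in all 3 obese ILC1 libraries. It was lower in ILC1 in 6 of 6 mice and was not called by edgeR (adjusted p = 0.0933), whereas DESeq2 called it. Adra2b had counts in 5 libraries, of at most 26. Adra2a had 1 and 6 counts in lean NK 25 and 26, and Adra1b had 10 in obese ILC1 26. Adra1a, Adra1d, Adra2c and Adrb3 had no count in any library.

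Among the cyclases, Adcy7 (chr8:88272403-88329962), the isoform typical of haematopoietic cells, carried nearly all of the counts. Lean NK cells had 1522, 1355 and 830 normalized counts and obese NK cells 1425, 1234 and 1440. Lean ILC1 had 1612, 1809 and 1374 and obese ILC1 1826, 1042 and 1031. The 4 groups overlapped. The log2 difference of ILC1 from NK cells was 0.13 (SE 0.21, 95% interval -0.33 to 0.58, adjusted p = 0.866), that of obese from lean NK cells was 0.18 (SE 0.29, adjusted p = 1), and that of obese from lean ILC1 was -0.33 (SE 0.29, adjusted p = 0.786). The first interval reaches 1.5-fold higher in ILC1 at its upper end.

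Adcy3 (chr12:4133103-4213525), a calcium-responsive cyclase, was present at a lower level. Lean NK cells had 127, 145 and 166 normalized counts and obese NK cells 76, 75 and 89, so that the diets did not overlap. Lean ILC1 had 126, 58 and 25 and obese ILC1 118, 39 and 45. The ILC1 libraries spread more than the NK libraries did, with mouse 25 high in each diet. The test uses 1 spread per gene for all 4 groups, so the ILC1 spread also widens the interval for NK cells. The log2 difference between diets in NK cells was -0.83 (SE 0.76, 95% interval -2.51 to 0.85, adjusted p = 1), and that of ILC1 from NK cells was -0.67 (SE 0.54, adjusted p = 0.628), lower in 5 of 6 mice. Cenpo lies on the opposite strand and shares 1380 of the exonic bases of Adcy3 (22.1%), and without a stated strand setting reads there cannot be assigned to one of the genes. Cenpo itself had 364, 345 and 13 normalized counts in lean and 207, 277 and 284 in obese NK cells, which overlapped.

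The remaining cyclases of the set were at the limit of detection. Adcy9 (chr16:4287529-4420498), a widely expressed isoform, had 10, 9 and 0 normalized counts in lean NK cells and 18, 16 and 5 in obese NK cells. It was at 0 in 5 of 6 ILC1 libraries and at 72 in obese ILC1 26. Adcy6 (chr15:98589973-98610076), a calcium-inhibited isoform, had a count in that same library alone, at 49 normalized counts, and was too low to test. Obese ILC1 26 was thus the single ILC1 library with Adcy6 and Adcy9, and the library with the most hepatocyte and Kupffer cell transcripts, whose part in these counts was not tested. Without the 3 libraries that stood apart, which leaves 1 obese ILC1 library, Adcy9 was called lower in ILC1, with all ILC1 libraries then at 0.

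β-arrestins were, of the 6 members with counts in every group, those whose 95% intervals left out 0 in obese against lean ILC1. Arrb2 (chr11:70432635-70440828), for β-arrestin 2, was the abundant one. Lean ILC1 had 1376, 1292 and 983 normalized counts and obese ILC1 664, 595 and 652. All obese ILC1 libraries lay below all lean ILC1 libraries and within a narrow range, as they did downward for 7.94% of genes tested (7.29% upward). Obese ILC1 25, which lost common genes, and 26, which held foreign transcripts, lay on either side of 27. The log2 difference was -0.97 (SE 0.22, 95% interval -1.45 to -0.48), or 0.512-fold, and did not pass edgeR's quasi-likelihood test after adjustment over 2606 genes (adjusted p = 0.208). DESeq2 gave -0.92 with an adjusted p of 0.00055, short of the required 2-fold. Leaving out libraries one at a time gave -1.11 to -0.87. Obese ILC1 27 as the single obese ILC1 library, with lean NK 27 also left out, gave -0.88. Over 20 alternatives the adjusted p ran from 0.00055 to 0.868.

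In NK cells the diets overlapped. Arrb2 was at 911, 716 and 1010 normalized counts in lean and 968, 976 and 929 in obese NK cells, with a log2 difference of 0.16 (SE 0.22, 95% interval -0.32 to 0.64, adjusted p = 1). The diet effect in ILC1 minus that in NK cells was -1.12 (SE 0.31, 95% interval -1.80 to -0.45, adjusted p = 0.701 by edgeR). DESeq2 gave -1.07 with an adjusted p of 0.0356 and called it, 1 of 15 genes that it called for this difference. Over 19 alternatives the adjusted p ran from 0.0356 to 1. In other terms, Arrb2 was 0.49 (log2, SE 0.22) above NK cells in lean ILC1 and -0.64 (SE 0.22) from them in obese ILC1, where the libraries did not overlap. Averaged over diets the difference from NK cells was -0.08 (SE 0.15, adjusted p = 0.897).

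Arrb1 (chr7:99535466-99606771), for β-arrestin 1, was scarce in 3 groups. Lean NK cells had 39, 54 and 14 normalized counts, obese NK cells 76, 49 and 77, and lean ILC1 77, 22 and 40. Obese ILC1 had 477, 339 and 70, so that obese 27 lay within the range of lean ILC1 and the groups overlapped. The log2 difference of obese from lean ILC1 was 2.63 (SE 0.88, 95% interval 0.69 to 4.56), not called by edgeR (adjusted p = 0.287) and called by DESeq2 (2.69, adjusted p = 0.024), which called 75 genes there. Over 20 alternatives the adjusted p ran from 0.024 to 0.868. The high values were in obese ILC1 25 and 26, the libraries with the lost genes and with the foreign transcripts. Without those and lean NK 27 the value was 0.62, with obese ILC1 27 as the single obese ILC1 library. Kupffer cell and macrophage markers summed to 1950 in obese ILC1 25, 50926 in 26 and 2120 in 27, against 178 to 466 in lean ILC1. Their part in the Arrb1 counts was not tested.

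Set beside each other, the arrestins had unequal counts in every library. Arrb2 outnumbered Arrb1 by 12.1 to 72.1 times (normalized counts, not corrected for length) in the 6 NK libraries and by 17.9 to 58.7 times in lean ILC1. In obese ILC1 the ratio was 1.39, 1.76 and 9.31. All obese ILC1 ratios lay below all others, in a ratio formed after the counts were seen and not tested.

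**Figure D4:**
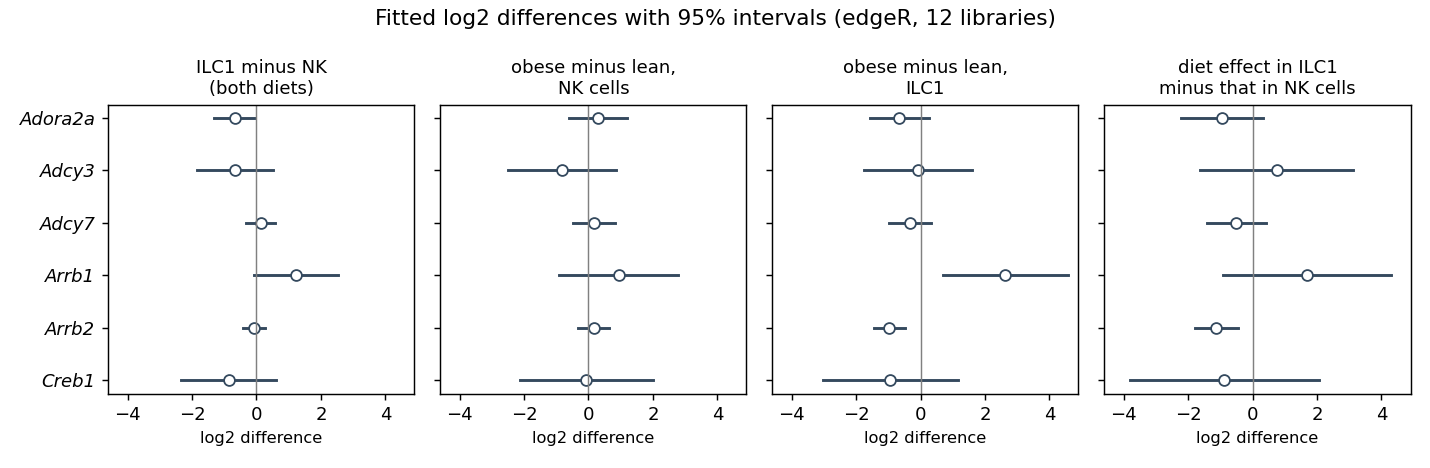
Log2 differences (points) with 95% intervals (lines) from edgeR for the 6 members with counts in every group, in the contrasts ILC1 minus NK cells, obese minus lean NK cells, obese minus lean ILC1, and the diet effect in ILC1 minus that in NK cells. Open points were not called. The intervals of Arrb1 (0.69 to 4.56) and Arrb2 (-1.45 to -0.48) in obese against lean ILC1 lie on opposite sides of 0, and the 4 intervals of Adcy7 include it.

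Creb1 (chr1:64532645-64604548) encodes the CRE-binding factor that protein kinase A phosphorylates. In NK cells it was steady, at 1228, 1370 and 1100 normalized counts in lean and 1188, 1174 and 1098 in obese mice, a log2 difference of -0.06 (SE 0.94, adjusted p = 1). Lean ILC1 had 845, 703 and 1203 and obese ILC1 6, 782 and 685. The SE of 0.94 in NK cells rests on 1 spread for all 4 groups, these ILC1 libraries included. The value of 6 stands for 5 reads in obese ILC1 25, the library that lost common genes. Creb1 was among those lost genes there, as were Calcrl, Creb3, Crem and Ampd2 of the wider pathway. The log2 difference of ILC1 from NK cells was -0.86 (SE 0.67, adjusted p = 0.611), lower in 5 of 6 mice, and that of obese from lean ILC1 was -0.94 (SE 0.95, 95% interval -3.03 to 1.15, adjusted p = 0.812). Without the 3 libraries that stood apart (obese ILC1 then being 1 library) the ILC1 to NK difference was -0.65 with an adjusted p of 0.0232 (0.0232 to 0.966 over 21 alternatives), short of the required 2-fold. Apart from obese ILC1 25, the 2 remaining obese ILC1 libraries overlapped the lean ones or lay just below them (685 and 782, against 703 to 1203).

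Counted together, 8 of the 9 genes were high enough to test and 0 were called in any comparison by edgeR (a call needs a fold change over 2 and an adjusted p under 0.05). Between ILC1 and NK cells 3.15% of the 2606 genes tested were called higher and 1.19% lower in ILC1. In obese against lean NK cells 0% were called higher and 0% lower, and the same 0% held each way for ILC1 and for the difference of the diet effect. At an unadjusted p under 0.05, 1 member stood in ILC1 against NK cells (Adora2a), 0 in obese against lean NK cells, 3 in obese against lean ILC1 (Adcy9, Arrb1 and Arrb2) and 1 in the difference of the effects (Arrb2). Over all genes these numbers were 495, 31, 277 and 155, and DESeq2 called 216, 9, 75 and 15. Among ILC1, Adcy9 had counts in obese ILC1 26 alone, and Arrb1 was high in obese ILC1 25 and 26 but not 27. The median log2 difference of the tested members was -0.37 in ILC1 against NK cells (all genes 0.04), 0.24 in NK cells by diet (all genes 0.09) and -0.21 in ILC1 by diet (all genes 0.02). These medians include Adora2b and Adcy9, each at 0 in all libraries of 1 group. Without overlap between diets in NK cells were Adora2a, higher in obese, and Adcy3, lower, against 9.9% and 6.33% of all genes. In obese mice Adora2a, Arrb2 and Creb1 were lower in all ILC1 than in all NK libraries and no member was higher (13.7% and 9.4% of all genes), and in lean mice Adcy3 was lower and no member higher (11.4% and 13.6%). For Adcy3 in lean mice the nearest libraries almost met, with lean ILC1 25 at 126 and lean NK 25 at 127 normalized counts. So did those of Adora2a in NK cells by diet, with lean NK 26 at 1279 and obese NK 25 at 1290.

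The wider pathway list of receptors, cyclases, receptor kinases, arrestins, anchoring proteins, CREB partners, CRE targets and adenosine-metabolising enzymes held 70 genes in the table, of which 42 were tested. In ILC1 against NK cells, 2 were called, both higher in ILC1 and both enzymes that act on adenosine or its precursors. No list gene was called by edgeR in obese against lean NK cells, obese against lean ILC1 or the difference of the diet effect, where 0, 6 and 4 had an unadjusted p under 0.05 and DESeq2 called 0, 1 (Arrb1) and 1 (Arrb2). Differences were positive for 20 and negative for 22 of the 42, with a median of -0.07. By role, 7 of 8 CREB family and coactivator genes had negative differences without a call, and 6 of 7 adenosine-metabolism genes had positive ones. Within lean mice, 4 of these 7 were positive and 3 negative, and within obese mice 5 and 2. Adal, Adk, Ahcy and Ampd2 were each higher in ILC1 in 3 mice and lower in 3, whereas Ada and Cd38 were higher in 6 of 6.

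Cd38, an ectoenzyme that consumes NAD and feeds an extracellular route to adenosine, was the first of the called genes. It had 514, 704 and 888 normalized counts in lean and 917, 759 and 883 in obese NK cells. ILC1 had 3421, 2837 and 3809 in lean and 4189, 5893 and 2158 in obese mice, all above every NK library. The T cell marker sums given above were likewise higher in every ILC1 than in every NK library, and their part in the Cd38 and Ada differences was not tested. The log2 difference was 2.23 (SE 0.22, adjusted p = 0.000217 by edgeR), higher in 6 of 6 mice. Cd38 was also called in the contrasts within lean and within obese mice.

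Ada, for adenosine deaminase, which converts adenosine to inosine, was the second. It had 165, 122 and 247 normalized counts in lean and 176, 256 and 186 in obese NK cells. ILC1 had 791, 902 and 607 in lean and 880, 323 and 529 in obese mice, again all above the NK libraries. The log2 difference was 1.79 (SE 0.31, adjusted p = 0.00617), higher in 6 of 6 mice. It was called in lean mice alone (2.13, adjusted p = 0.0293) and missed the threshold in obese mice alone (1.44, adjusted p = 0.146) and with the mouse as a block (1.75, adjusted p = 0.1). Neither enzyme was called between diets in either cell type.

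**Figure D5:**
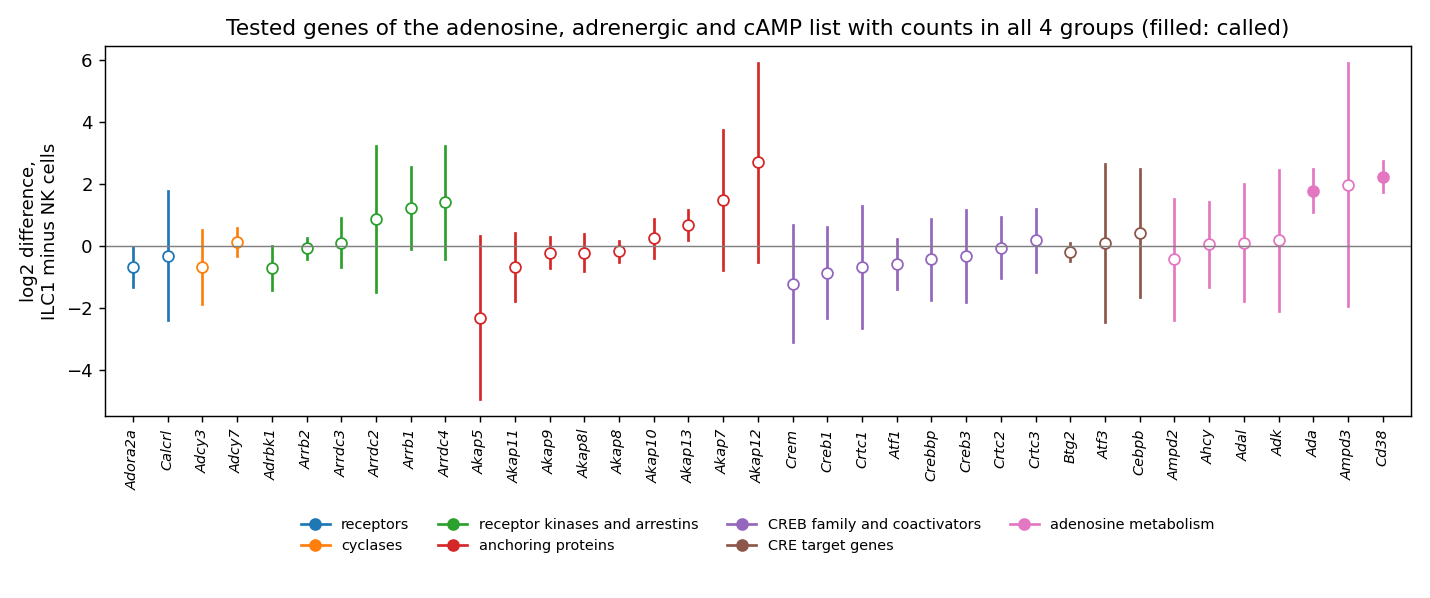
Log2 differences of ILC1 from NK cells with 95% intervals for 37 tested pathway genes with counts in all 4 groups, coloured by role. Filled points were called. Cd38 (2.23) and Ada (1.79) are the only filled points, and the intervals of the receptor, cyclase, arrestin and CREB genes reach or approach 0.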

How the data were processed

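RNA of 12 libraries (NK cells and ILC1 of 3 lean and 3 obese mice) was sequenced by the study. Per the labels and the submitters' processing notes, reads were handled with bcl2fastq 2.19, Trimmomatic 0.36.5, STAR 2.5.2b and featureCounts 1.6.0.2 on mm10. The annotation and strand setting were not given in the sources used here. The authors deposited raw counts per gene, and beside them a normalized score, which is the count divided by a factor per library and rounded, printed here as normalized counts. Differential expression in the study used SARTools.

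The analysis covers the 5545 genes with complete rows, alphabetically up to Cyp26b1, and 1 incomplete row was left out. Totals of 1666637 to 2826766 counts therefore understate the depth. Intervals cover the spread between libraries, estimated for each gene over all 4 groups together. Libraries far apart in 1 group therefore widen the intervals of every comparison.

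Counts were tested in R 4.3.3 with edgeR 4.0.16 (TMM factors and the filterByExpr filter, then the quasi-likelihood glmQLFit and glmQLFTest, the 4 groups in 1 model and no covariate) with Benjamini-Hochberg adjustment over 2606 genes. Calls needed a fold change over 2 with an adjusted p under 0.05, as in the study. Standard errors were obtained from the log2 fold change and the F statistic. ILC1 against NK cells is the mean of both ILC1 groups minus the mean of both NK groups. No fold of its own is given for a gene with a group at 0, but medians and counts of signs include such genes. The scripts were tested on simulated data. DESeq2 1.42.0, other normalization, filters, blocks and left-out libraries were alternatives.

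The design takes both cell types from each mouse, so ILC1 and NK libraries are paired by mouse. Deviations from the group means of the paired libraries correlated at -0.0133, 0.102, 0.0556, -0.0763, -0.0531 and 0.141. Lean and obese mice of 1 number are different animals.

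The members, lists and tests were chosen with earlier results of these data known. Named are all members, the pathway genes called, the adrenergic and adenosine receptors in the table (1 item is not reported here), and the 5 genes that correlated best with the member of smallest p in ILC1 against NK cells. Positions are from GENCODE on GRCm38, by symbol, and promoters from RefSeq on GRCm38.p6. No pair of libraries was identical.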

Additional observations from a re-analysis of the deposited data

How the results depend on the processing

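Genes called between ILC1 and NK cells numbered 113 (pathway list 2, members 0). DESeq2 called 216 (list 4: Adrb1, Adrbk2, Ada and Cd38). Adrbk2 was too low for edgeR to test, and stood at 502 normalized counts in obese ILC1 26 and at most 18 elsewhere. The contrast within lean mice called 60, that within obese mice 24 (list 1), and the fit with the mouse as a replicate block 46 (list 1, Cd38, with Ada lost). Without lean NK 27 and obese ILC1 25 and 26, chosen after seeing the data, obese ILC1 is the single library 27, assumed to vary like the other groups, and 245 were called (list 5, members 1, Adcy9). Leaving out each library gave 63 to 161 genes and 0 to 1 members (Adora2a, without obese ILC1 27). Between diets in NK cells 0 were called, against 9 by DESeq2, 5 without the 3 libraries and 0 to 1 leaving out each library. In ILC1 0 were called, against 75 by DESeq2 (members 1 and list 1, Arrb1), 28 without the 3 libraries (list 1, Crem) and 0 to 6 leaving out each library. For the difference of the diet effect 0 were called, against 15 by DESeq2 (members 1 and list 1, Arrb2), 18 without the 3 libraries and 0 to 1 leaving out each library. The replicate block changed no member's call. The cause of these changes was not tested.

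The log2 differences that changed sign were as follows. In ILC1 against NK cells, Arrb2 was 0.49 within lean mice. Adcy7 was -0.12 within obese mice, -0.14 without the 3 libraries and -0.043 without obese ILC1 25. In obese against lean NK cells, Creb1 was 0.028 without lean NK 26, and Adcy7 was -0.047 without lean NK 27 (up to 0.36 without others) and -0.029 without the 3 libraries. In obese against lean ILC1, Adcy3 was 0.66 without lean ILC1 25, 0.22 without obese ILC1 26 and 0.12 without obese ILC1 27 (-0.78 at the lowest, without obese ILC1 25), and Adora2a was 0.24 without the 3 libraries. Calls of members depended on the tool and on the libraries kept, also for the abundant Adora2a and Arrb2.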
